A study of Mus musculus with 30 samples.

Results

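Skeletal muscle is built of fibers that differ in the motor protein they carry. Slow (type I) fibers contract with the myosin heavy chain Myh7, resist fatigue and burn fat and lactate in mitochondria, while the fastest mouse fibers (type IIb) contract with Myh4 and run on glycogen and glycolysis. Intermediate fast fibers carry Myh2 (type IIa) or Myh1 (type IIx). Slow and fast fibers also have their own light chains, troponins, tropomyosin, calcium pump and calcium store protein. A muscle's mixture of slow and fast fibers can therefore be read from pairs of such isoforms. The gastrocnemius of the mouse is mostly fast, with its slow fibers gathered in a deep red region.

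The libraries compared here were the 10 with the most and the 10 with the least slow myosin relative to fast myosin among 30 gastrocnemius libraries. The sets were chosen by the measured levels of these genes: for each library log2(Myh7/Myh4) was computed from FPKM (a level corrected for transcript length and library size). The 10 highest libraries are called slow-myosin-rich, the 10 lowest slow-myosin-poor, and the other 10 lay between. Genes other than Myh7 and Myh4 were then compared on read counts, with the light schedule as a covariate. All 30 mice were wild-type C57BL/6J males, housed singly with a running wheel and 14 weeks old when the schedules began. The 14 LD mice lived for 64 weeks under light from clock hour 8 to 20, and the 16 ADV mice under the same cycle moved 8 h earlier once every 4 days. Before either schedule, all had been kept in constant darkness for a time. The muscle was removed with the plantaris attached, 1 library per mouse, and the soleus, the slow muscle lying beneath it, was collected separately. Reads counted on exons numbered 18875468.5 to 28512674 per library. The authors also fixed gastrocnemius for histology, and which part or leg gave the RNA is not stated. More fibers of a type, more RNA per fiber and a different part of the muscle sampled cannot be told apart.

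The difference between the sets in the values that chose them is given as a description, without a test. Among the slow-myosin-rich libraries log2(Myh7/Myh4) was −7.22 at the lowest, −6.88 at the median and −4.97 at the highest. Among the slow-myosin-poor libraries it was −11.97, −9.23 and −8.31. The libraries next to the limits were close to them: LD36 was inside the rich set at −7.22 and LD21 outside it at −7.23, and ADV28 was inside the poor set at −8.31 and ADV26 outside it at −8.25. Myh7 ranged from 48.4 to 233 FPKM in the rich set (median 78.7) and from 3.88 to 33.7 FPKM in the poor set (median 22.4), with no overlap. Myh4 ranged from 6813 to 10936 FPKM in the rich set (median 9907) and from 10576 to 15582 FPKM in the poor set (median 12014), and the sets overlapped. Even in the richest library, therefore, the level of Myh4 was far above that of Myh7. The library ADV24 stood apart at −4.97, the next highest being LD22 at −6.81, and LD23 was the lowest at −11.97. Results are therefore also given without these libraries.

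**Figure D1:**
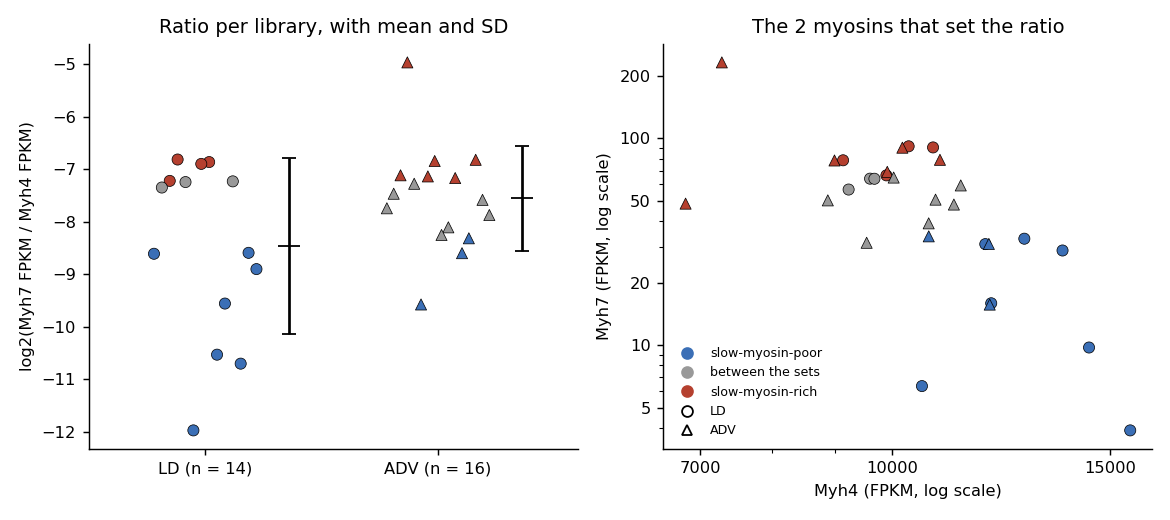
Left, log2(Myh7/Myh4) of each library by schedule, with the mean and SD; right, Myh7 against Myh4 (FPKM, log scales), 1 point per library, colored by set (circle LD, triangle ADV). ADV24 lies alone at the top of both plots, and the poor set reaches down to 3.88 FPKM of Myh7.

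The schedules were spread over both sets. The rich set held 4 LD and 6 ADV libraries, and the poor set 7 LD and 3 ADV libraries (two-sided Fisher's exact test, p = 0.370). Over all libraries the ratio was −8.46 ± 1.68 (SD, n = 14) in LD mice and −7.55 ± 1.0 (SD, n = 16) in ADV mice. The difference of 0.911, over all 30 libraries and by the schedule of their labels, did not pass the two-sided permutation test (p = 0.0779). With each library left out in turn the difference ranged from 0.641 to 1.05, and p went under 0.05 without LD22 (p = 0.0494 by permutation) and without ADV22 (p = 0.0432 by permutation). Two-sided permutation tests of depth did not pass: reads on exons had p = 0.393 after adjustment over 3 measures, and the share of reads on exons p = 0.319. Mitochondrial genes took 11.2 ± 1.39% of the reads in the rich set and 9.07 ± 1.57% in the poor set (SD, n = 10 each), a difference that passed the permutation test (adjusted p = 0.0176).

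Of 12028 genes tested, 267 (2.22%) were called changed between the sets, with an FDR under 0.05 in edgeR's quasi-likelihood test and a fold change over 1.3. Higher in the slow-myosin-rich libraries were 188 genes (1.56%), and lower were 79 (0.657%). The FDR alone was under 0.05 for 599 genes (4.98%), 357 of them higher (2.97%) and 242 lower (2.01%). Without ADV24, 234 genes were called, and without both ADV24 and LD23, 179. Without LD22 the count was 125, without LD29 it was 140 and without ADV23 it was 173. The 267 genes kept their direction in each of the 20 fits that left out 1 library. They had been selected on these same libraries, so that this could hardly come out otherwise and is no separate support. With 7 libraries per set 41 genes were called, and with sets made by Myh7 alone 70. Within the LD libraries alone 0 genes passed (1997 had an unadjusted p under 0.05 in edgeR). Within the ADV libraries alone 4 passed, namely Dusp18, Gm5532, C7 and Cbr2 (1151 had an unadjusted p under 0.05). FPKM ranges without overlap between the sets were found for 22 genes higher (0.183%) and 6 genes lower (0.0499%) in the rich set.

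The slow sarcomere came first. Of 14 genes tested that encode slow or mainly slow sarcomere proteins, 11 were called higher and 0 lower in the slow-myosin-rich libraries, where 1.56% of all genes were called higher. Their median log2 fold change was 1.19, against −0.01 over all genes. The 14 genes were all above 0. Of 4 genes tested of the slow calcium cycle, 3 were called higher, with a median log2 fold change of 1.15. Together 14 of the 18 were called, and 14 were also called without ADV24 and without both ADV24 and LD23. Without LD22, without LD29 or without ADV23, 11 were called, with sets made by Myh7 or by Myh4 alone 9, and with 7 libraries per set 5.

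The troponin complex, which lets calcium switch on contraction, showed the largest differences. Tnni1, the slow inhibitory subunit, was at 2.37 FPKM at the lowest, 14.7 at the median and 24.8 at the highest in the poor set, and at 42.3, 56.3 and 149 in the rich set. The sets did not overlap, and the highest value was that of ADV24, the next being 73.1. The log2 fold change was 2.01 (SE 0.317, FDR = 0.00476 in edgeR), the largest rise among all genes tested. Tnnc1, the slow calcium-binding subunit, ran from 3.87 over 28.9 to 46.6 FPKM in the poor set and from 73.5 over 99.9 to 239 in the rich set, again with no overlap (log2 fold change 1.93, SE 0.326, edgeR FDR = 0.00579). Tnnt1, the slow subunit that ties troponin to tropomyosin, ran from 7.28 over 41.1 to 63.0 FPKM and from 91.3 over 137 to 360 (log2 fold change 1.89, SE 0.319, edgeR FDR = 0.00579). Tpm3, which encodes slow tropomyosin, ran from 8.57 over 31.6 to 58.3 FPKM and from 87.2 over 116 to 269 (log2 fold change 1.80, SE 0.273, edgeR FDR = 0.00476). For all these genes the highest poor library was below the lowest rich library. The medians of the libraries between the sets, 38 FPKM for Tnni1, 70.8 for Tnnc1, 92.7 for Tnnt1 and 88.9 for Tpm3, lay between those of the sets.

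**Figure D2:**
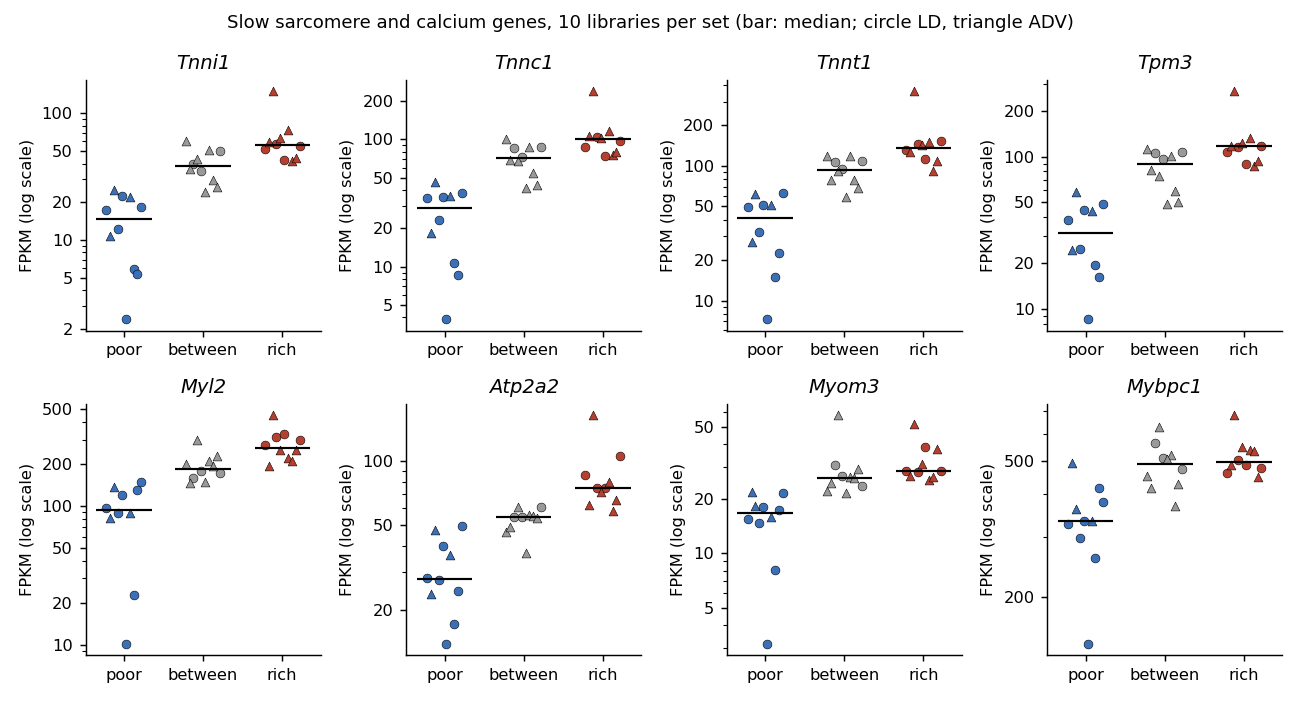
FPKM (log scale) of 8 slow sarcomere and calcium genes in the 10 slow-myosin-poor libraries, the 10 between and the 10 slow-myosin-rich libraries; each point is a library (circle LD, triangle ADV) and the bar is the median. For 7 of them no rich library reached down into the poor set, as for 0.183% of all genes, while Mybpc1 overlapped. Of the tested slow genes not shown, Myl3 did not overlap. Actn2, Myoz2, Myh7b, Csrp3, Ankrd2, Myl6b, Casq2, Pln and Sln did.

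The stretches of genome just before the starts of the 5 called slow genes with the largest log2 fold changes are shown, since these genes moved together in these libraries. Each is the 250 bases before the start of the transcript in the deposited tables (GRCm39, read 5′ to 3′ on the gene's strand). Capitals mark matches to CAGCTG (an E-box, the type of site bound by myogenic factors such as MyoD), CATTCC (the MCAT element of TEAD factors) or TAAAAATA (one form of the MEF2 site), searched on both strands; no match overlapped another.
Tnni1 (chr1:135726890-135727139, + strand): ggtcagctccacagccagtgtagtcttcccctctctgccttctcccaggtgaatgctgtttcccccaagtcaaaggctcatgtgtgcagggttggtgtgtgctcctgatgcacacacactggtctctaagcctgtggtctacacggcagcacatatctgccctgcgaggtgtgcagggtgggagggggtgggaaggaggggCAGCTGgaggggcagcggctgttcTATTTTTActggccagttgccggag
Tnnc1 (chr14:30930019-30930268, + strand): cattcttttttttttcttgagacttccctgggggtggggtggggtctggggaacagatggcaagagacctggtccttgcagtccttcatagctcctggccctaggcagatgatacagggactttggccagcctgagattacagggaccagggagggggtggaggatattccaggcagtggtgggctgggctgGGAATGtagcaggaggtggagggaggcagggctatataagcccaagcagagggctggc
Tnnt1 (chr7:4518959-4519208, - strand): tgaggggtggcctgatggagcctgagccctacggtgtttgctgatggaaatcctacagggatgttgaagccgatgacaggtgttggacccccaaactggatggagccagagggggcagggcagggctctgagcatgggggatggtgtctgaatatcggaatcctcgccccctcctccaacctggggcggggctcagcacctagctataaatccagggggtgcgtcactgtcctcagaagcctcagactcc
Tpm3 (chr3:89979706-89979955, + strand): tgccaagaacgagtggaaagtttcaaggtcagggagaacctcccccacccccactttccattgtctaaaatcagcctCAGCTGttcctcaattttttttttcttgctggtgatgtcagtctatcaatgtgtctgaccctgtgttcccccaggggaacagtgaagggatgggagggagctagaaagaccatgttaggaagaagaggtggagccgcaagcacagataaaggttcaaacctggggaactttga
Myh7b (chr2:155452882-155453131, + strand): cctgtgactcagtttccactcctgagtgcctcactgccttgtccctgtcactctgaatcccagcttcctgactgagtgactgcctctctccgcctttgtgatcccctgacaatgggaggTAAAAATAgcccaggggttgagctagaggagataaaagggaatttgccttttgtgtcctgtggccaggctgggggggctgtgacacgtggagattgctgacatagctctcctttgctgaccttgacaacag

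In Tnni1 the E-box match began 49 bases and the MEF2 match 25 bases before the start. The MCAT match of Tnnc1 began 58 bases, the E-box match of Tpm3 173 bases and the MEF2 match of Myh7b 131 bases before it, and the Tnnt1 window held none of these letters. Over the windows of all 12028 genes with one, 12.0% held CAGCTG, 10.4% CATTCC and 1.55% TAAAAATA. Over the 188 genes called higher the shares were 15.4%, 11.2% and 4.79%, and over the 79 called lower 12.7%, 11.4% and 3.80%. A match is a run of letters and was not tested as a site.

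The light chains and the other slow sarcomere genes followed. Myl2, the slow regulatory light chain, ran from 10.2 over 93.0 to 149 FPKM in the poor set and from 195 over 262 to 448 in the rich set (log2 fold change 1.59, SE 0.326, edgeR FDR = 0.0107). Myl3, the slow essential light chain, ran from 11.3 over 103 to 201 FPKM and from 212 over 262 to 504 (log2 fold change 1.31, SE 0.330, edgeR FDR = 0.0267). Neither overlapped between the sets. Myom3, an M-band protein, did not overlap either (3.17 to 21.7 FPKM against 25.2 to 51.8, log2 fold change 0.99). Myh7b, a further slow-type myosin present at a low level, was called higher at 0.494 to 3.15 FPKM against 0.0850 to 0.519 (log2 fold change 1.73, SE 0.334, edgeR FDR = 0.00923), as were the Z-disc genes Myoz2 (85.3 to 167 FPKM against 7.27 to 90.5, log2 fold change 1.07) and Actn2 (397 to 792 FPKM against 136 to 412, log2 fold change 0.66). In these 3 genes 9 of 10 rich libraries were above the highest poor library. Mybpc1, slow myosin binding protein C, had the smallest called difference of the list (449 to 679 FPKM against 146 to 493, log2 fold change 0.55, SE 0.136, edgeR FDR = 0.0257), and 5 of 10 rich libraries were above the poor set.

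The slow sarcomere genes that were not called were Csrp3, Ankrd2 and Myl6b. Csrp3 and Ankrd2 encode stretch-responsive proteins of the Z-disc and I-band. Csrp3 had a log2 fold change of 0.84 (SE 0.341, FDR = 0.159) and Ankrd2 one of 0.78 (SE 0.306, FDR = 0.145). Within LD libraries Csrp3 stood at 0.46 (SE 0.490) and within ADV libraries at 1.34 (SE 0.235), and Ankrd2 at 0.51 (SE 0.460) and 1.14 (SE 0.194). The difference of the slopes on the ratio between schedules did not pass the edgeR test for Csrp3 (FDR = 0.911) or Ankrd2 (FDR = 0.949). Myl6b, a light chain of slow and embryonic muscle, was at 3.64 to 5.90 FPKM in the rich set and 2.92 to 4.91 in the poor set, and 51.8% of its exon bases also lie under an antisense gene.

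Relaxation depends on pumping calcium back into the sarcoplasmic reticulum, and 3 of the 4 slow genes tested of this cycle were called higher, all but Sln. Atp2a2, the pump SERCA2 of slow fibers and heart, ran from 13.9 over 27.8 to 49.3 FPKM in the poor set and from 58.5 over 74.4 to 164 in the rich set, with no overlap (log2 fold change 1.41, SE 0.222, edgeR FDR = 0.00476). Casq2, the calsequestrin of heart and slow muscle, which stores calcium, ran from 4.1 over 11.9 to 16.9 FPKM and from 14.5 over 21.7 to 28.7, and 8 of 10 rich libraries were above the poor set (log2 fold change 0.88, SE 0.191, edgeR FDR = 0.0145). Pln, phospholamban, a small inhibitor of the pump, was near 1 FPKM (0.844 to 2.65 against 0.107 to 1.21) with a log2 fold change of 1.56 (SE 0.300, edgeR FDR = 0.00923). Sln, sarcolipin, another small inhibitor of the pump, was at 0.630 to 4.06 FPKM against 0.730 to 2.27 and was not called (FDR = 0.453). Within LD libraries its log2 fold change was 0.92 and within ADV libraries −0.22, and the difference of its slopes was not called (FDR = 0.862). Strit1, a micropeptide acting on the same pump, was not tested, being too low.

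Each schedule was also read alone. Among the 18 slow sarcomere and calcium genes, 18 were above 0 within the 11 LD libraries of the sets, with a median log2 fold change of 1.28, and 17, all but Sln, within the 9 ADV libraries, with a median of 1.24. Tnni1 stood at 2.10 (SE 0.422) within LD and 1.93 (SE 0.406) within ADV, and Atp2a2 at 1.56 (SE 0.273) and 1.24 (SE 0.320). None of the 18 passed the FDR within either schedule. An unadjusted p under 0.05 in edgeR was found for 15 of them in LD and 16 in ADV. Over all 12028 genes tested it was found for 1997 in LD and 1151 in ADV. Over all 30 libraries, the slope of expression on the ratio differed between the schedules for 0 genes in edgeR (965 had an unadjusted p under 0.05, and 443 without ADV24, where again 0 passed). DESeq2 called 4, namely Col18a1, Fads3, Igfals and Tiam1, none of them a slow gene.

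None of the fast isoforms was called. Of 10 genes of the fast sarcomere, 0 were called in either direction, and of 6 genes of the fast calcium cycle, 0. All 16 had a log2 fold change below 0, with medians of −0.19 and −0.18; within ADV libraries alone 14 did, Mylk2 standing at 0.03 and Cacna1s at 0.05. With sets made by Myh4 alone, 2 were called lower, Actn3 (−0.39) and Mybpc2 (−0.41). An FDR under 0.05 in edgeR with a smaller fold, which 2.01% of all genes reached on this side, was found for Mylpf, the fast regulatory light chain (−0.20, FDR = 0.0397), Myoz1, the fast calsarcin (−0.22, FDR = 0.0403), Casq1, the fast calsequestrin (−0.21, FDR = 0.0257), and Pvalb, parvalbumin, the calcium buffer of fast fibers (−0.27, FDR = 0.0269). Tnnt3, fast troponin T, was at 16328 to 19145 FPKM in the rich set and 19264 to 23595 in the poor set. Its ranges did not overlap, although its log2 fold change was −0.18 (SE 0.0558, FDR = 0.0656) and it was not called. Atp2a1, the fast pump SERCA1, was at 6279 to 8516 FPKM against 7034 to 10014 (log2 fold change −0.14, FDR = 0.316). The largest difference of the group was that of Actn3, the alpha-actinin of fast fibers, at 1815 to 2964 FPKM against 2438 to 3835 (−0.31, SE 0.105, FDR = 0.0868), level with that of Mybpc2 (−0.31, SE 0.0989, FDR = 0.0734).

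Set beside its fast partner, each slow gene was the rarer isoform in every library. For 11 pairs of a slow and a fast isoform the log2 ratio of slow to fast FPKM was below 0 throughout. In 8 pairs all 10 rich libraries were above the highest poor library. A ratio of the same kind, of Myh7 to Myh4, chose the sets, so such a gap is partly built in and only described. No share over other pairs of genes was computed. Among single genes, 0.183% were higher in the rich set without overlap. The Tnni1/Tnni2 ratio ran from −12.09 over −9.41 to −8.74 in the poor set and from −7.86 over −7.35 to −5.80 in the rich set. The mean of this log2 ratio differed by 2.49 between the sets. At the other end, the mean Mybpc1/Mybpc2 ratio differed by 1.03 and Actn2/Actn3 by 1.11. Alpha-actinin, calsequestrin and calsarcin were the pairs in which 9 rich libraries were above the poor set. Fast fibers also express Actn2 and Mybpc1, whose median levels in the poor set were 317 and 333 FPKM, against 14.7 for Tnni1.

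**Figure D3:**
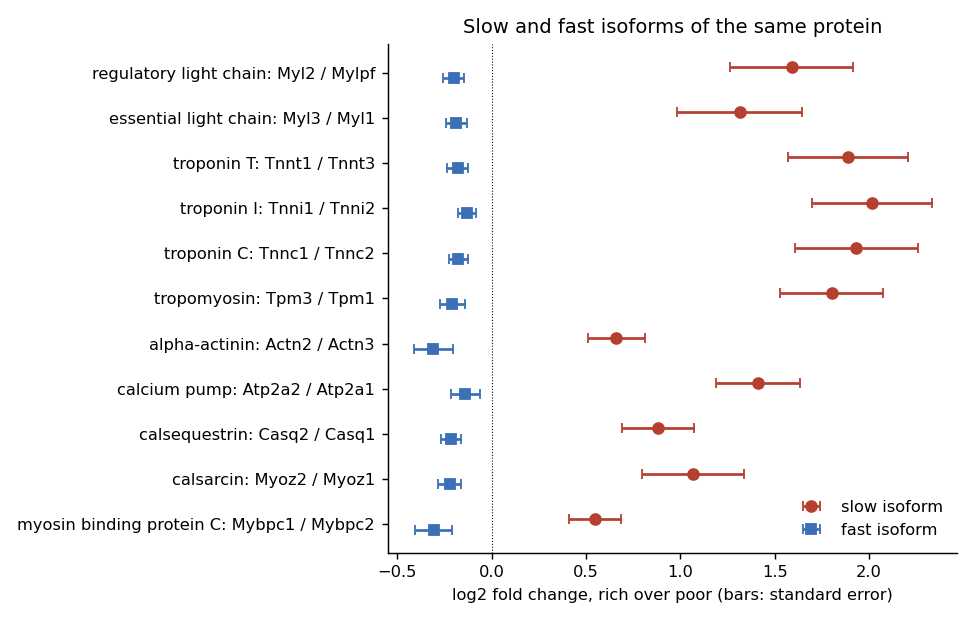
Log2 fold change of the slow (red circles) and the fast isoform (blue squares) of 11 proteins, slow-myosin-rich over slow-myosin-poor, with bars for the standard error. Slow isoforms ran from 0.55 (Mybpc1) to 2.01 (Tnni1), all called, and fast isoforms from −0.31 (Actn3) to −0.13 (Tnni2), none called.

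The intermediate myosins were not called. Myh2, of type IIa fibers, ran from 83.4 over 465 to 747 FPKM in the poor set and from 592 over 807 to 1445 in the rich set (log2 fold change 0.90, SE 0.275, FDR = 0.0611). Myh1, of type IIx fibers, ran from 660 over 1250 to 1487 FPKM and from 1221 over 1706 to 2267 (log2 fold change 0.44, SE 0.133, FDR = 0.0599). Both narrowly missed the threshold, and 6 and 7 of 10 rich libraries were above the poor set. Myh1, Myh2 and Myh4 are neighboring, closely similar genes, as are Myh7 and the heart gene Myh6. Only reads with a mapping quality of 10 or more were kept, so reads that fit several of these genes may have been dropped. These levels are uncertain to that degree.

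Of 20 genes tested for oxygen storage and fat use, 11 were called higher (1.56% of all genes) and 0 lower, with a median log2 fold change of 0.40, and 19 were above 0. Mb, myoglobin, the oxygen store of red muscle, ran from 795 over 1924 to 2836 FPKM in the poor set and from 2415 over 3367 to 4813 in the rich set, and 8 of 10 rich libraries were above the poor set (log2 fold change 0.70, SE 0.181, edgeR FDR = 0.0313). Fabp3, the fatty acid carrier of heart and red muscle, ran from 140 over 344 to 517 FPKM and from 317 over 611 to 923 (log2 fold change 0.79, SE 0.197, edgeR FDR = 0.0253). Lpl, which frees fatty acids from lipoproteins at the vessel wall, was at 170 to 319 FPKM against 75.3 to 178 (0.71, SE 0.149, edgeR FDR = 0.0126), and Cd36, which takes them up, at 95.5 to 185 FPKM against 58.2 to 116 (0.52). Acadl and Hadhb, enzymes of beta-oxidation, stood at 0.45 and 0.51. No gene of the 20 was above the 0.79 of Fabp3.

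In the tricarboxylic acid cycle and lactate use, 4 of 17 genes were called higher (1.56% of all genes) and 0 lower (0.657%), and all 17 were above 0 with a median of 0.21. Ldhb, the lactate dehydrogenase subunit of heart and slow muscle, ran from 35.2 over 130 to 206 FPKM in the poor set and from 182 over 259 to 356 in the rich set (log2 fold change 0.96, SE 0.221, edgeR FDR = 0.0197). Idh2, mitochondrial NADP-dependent isocitrate dehydrogenase, ran from 60.0 over 140 to 181 FPKM and from 172 over 253 to 371 (0.94, SE 0.176, edgeR FDR = 0.00868). In each of these genes 9 of 10 rich libraries were above the poor set. Reads that fit both Ldhb and a closely similar pseudogene may have been dropped for low mapping quality, so that its level is uncertain to that degree. The others called were Mdh1 (0.41) and Got1 (0.38), enzymes of the malate-aspartate shuttle. A further 8 genes of the list had an FDR under 0.05 with a smaller fold, such as Mdh2 (0.19). In all, 12 of the 17 had an FDR under 0.05 and were higher, against 2.97% of all genes. Of 29 genes of the respiratory chain, 0 passed the fold limit, 7 had an FDR under 0.05, all higher (2.97% of all genes),  and all 29 were above 0, with a median log2 fold change of 0.20. Atp5f1b, the catalytic subunit of ATP synthase, was at 1247 to 1666 FPKM against 972 to 1388 (0.20, FDR = 0.0611).

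Of 15 genes of glycolysis, 0 were called, 3 had an FDR under 0.05 (Pkm, Ldha and Gpd1, all lower in the rich set, as were 2.01% of all genes), and 13 were below 0, with a median of −0.12. Aldoa, aldolase A, was at 7283 to 9279 FPKM in the rich set and 8886 to 10128 in the poor set (−0.17, FDR = 0.0838). Of 11 genes of glycogen metabolism, 1 was called: Gbe1, the glycogen branching enzyme, which was higher, as were 1.56% of all genes (18.1 to 30.4 FPKM against 9.40 to 22.1, log2 fold change 0.46, edgeR FDR = 0.0224). A further 4 of the 11 had an FDR under 0.05 and were lower, as were 2.01% of all genes, each under the fold limit. They were Phka1 (−0.30), Phkb (−0.20), Phkg1 (−0.21) and Pygm. Pygm, muscle glycogen phosphorylase, was at 2288 to 3038 FPKM against 2917 to 3927 (−0.26, FDR = 0.0414).

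**Figure D4:**
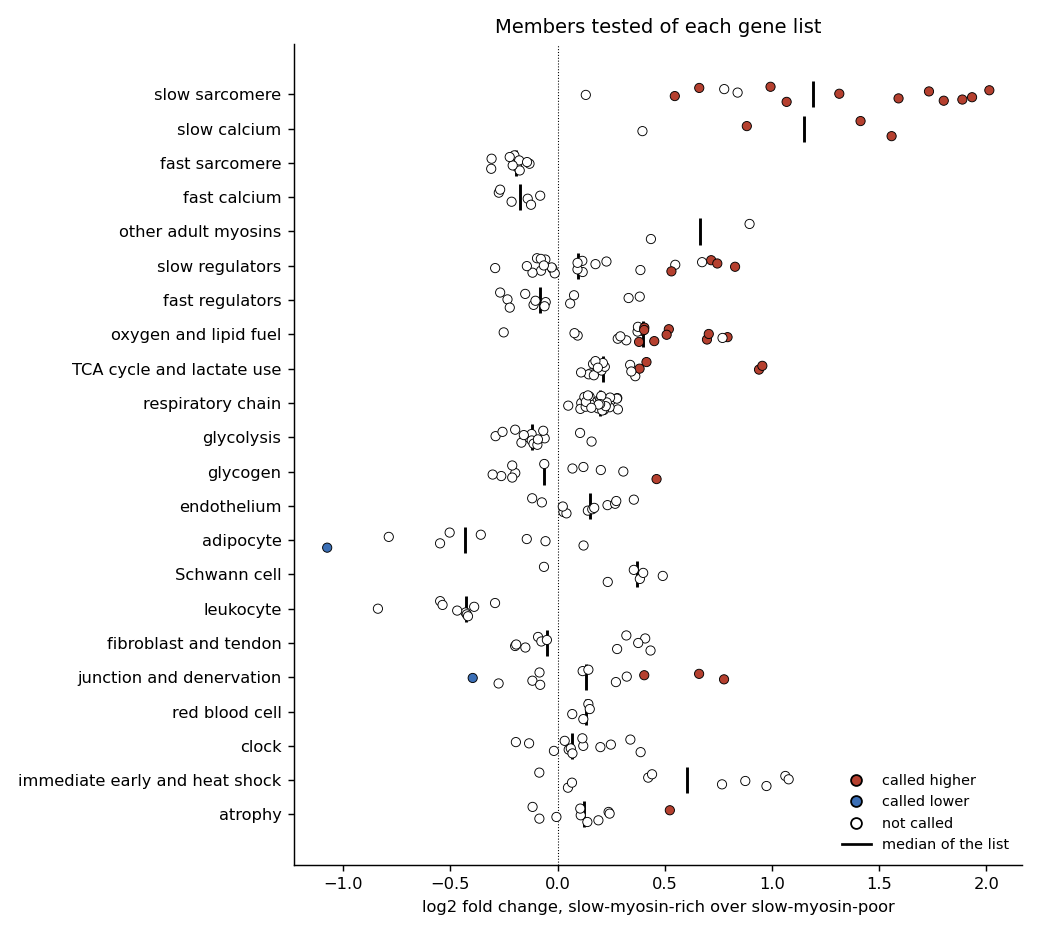
Log2 fold change of every tested member of 22 gene lists, slow-myosin-rich over slow-myosin-poor; filled points were called (FDR under 0.05 and fold over 1.3), open points were not, and bars are list medians. The slow sarcomere and calcium lists lie farthest to the right with medians of 1.19 and 1.15, and the fast lists lie just left of 0.

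Among 24 genes known to regulate or sustain the slow program, 4 were called higher (1.56% of all genes), 0 lower, and the median was 0.09. They were Ppara, a nuclear receptor that drives fat oxidation genes (5.28 to 12.5 FPKM against 2.66 to 6.81, log2 fold change 0.83, SE 0.171, edgeR FDR = 0.0116), Perm1, a muscle regulator of mitochondrial genes (79.2 to 130 FPKM against 39.5 to 110, 0.53), Esrrb, an estrogen-related receptor (3.11 to 6.51 FPKM against 1.02 to 5.10, 0.72), and Vgll2, a cofactor of TEAD factors (18.6 to 92.7 FPKM against 11.9 to 38.7, 0.75, edgeR FDR = 0.0439). Mef2c, one of the MEF2 factors, was at 109 to 130 FPKM against 95 to 123 and was not called (0.09, FDR = 0.201). Camk2a, a calcium-dependent kinase subunit, was the one member on the other side with an FDR under 0.05 in edgeR, under the fold limit (−0.29, FDR = 0.00676). Of 12 regulators of the fast program, 0 were called and the median was −0.08; Tbx15, found in glycolytic fibers, stood at −0.15 (FDR = 0.228) and Maf at −0.23 (FDR = 0.360).

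Outside all lists, the largest called rises were in Cyfip2, D630024D03Rik, 5430401H09Rik, Gm5532, Cidea, Dusp18, Gm41757 and Gm49708, with log2 fold changes from 1.16 to 1.48. Cyfip2, part of the WAVE complex that drives actin branching, was the only one of them whose sets did not overlap (1.96 to 7.71 FPKM against 0.278 to 1.87, SE 0.282, edgeR FDR = 0.00923). Dusp18, a dual-specificity phosphatase, was at 8.49 to 16.7 FPKM against 1.40 to 9.45 (1.21, SE 0.214), and Cidea, a lipid droplet protein, at 0.550 to 2.02 FPKM against 0.117 to 0.846 (1.28, SE 0.252). Genes picked after their values were seen were Nnt, the mitochondrial transhydrogenase (15.4 to 24.3 FPKM against 4.92 to 13.9, 0.83, edgeR FDR = 0.00579), and the growth factor Fgf1 (8.38 to 19 FPKM against 2.60 to 8.24, 0.88, edgeR FDR = 0.00923), neither of which overlapped between the sets. Picked in the same way, the abundant muscle genes Fhl1 (488 to 1100 FPKM against 120 to 500, 0.77) and Hspb7 (198 to 486 FPKM against 74.4 to 254, 0.72), Lmod2, which lengthens thin filaments (81.7 to 303 FPKM against 21.3 to 131, 0.96), and the long noncoding RNA H19 (125 to 230 FPKM against 69.5 to 150, 0.68) were called higher as well.

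Of the 79 genes called lower in the slow-myosin-rich libraries, Cfd and Myh8 were on the lists. The largest called falls outside the lists were in Sult1e1, C7, Cyp2f2, H2-Ab1, Crip3, Gm4841, Syt9 and ENSMUSG00000121608. Their log2 fold changes ran from −1.36 to −0.89. Among the alternatives that did not use the label number, that of Gm4841 turned to 0.0332 over all 30 libraries with the ratio as a number. With sets made by Myh4 alone it turned to 0.22. C7, a terminal complement component, was at 5.55 to 11.9 FPKM in the rich set and 11 to 26.7 in the poor set, and 9 of 10 rich libraries were below the poor set (−1.17, SE 0.169, edgeR FDR = 0.00476). Sult1e1, the estrogen sulfotransferase, was at 0.234 to 1.03 FPKM against 0.295 to 1.92 (−1.36, SE 0.321, edgeR FDR = 0.0212). H2-Ab1, a chain of class II histocompatibility molecules, was at 8.35 to 17.4 FPKM against 13.2 to 60.9 (−0.96, edgeR FDR = 0.0478). It stood at −1.51 (SE 0.392) within LD and −0.25 (SE 0.112) within ADV libraries, and LD33 had the highest value. Picked after their values were seen, C3, the central complement component, was at 21.4 to 34.9 FPKM against 34.7 to 90.4 (−0.81, edgeR FDR = 0.0107), Apoe at 36.5 to 81.3 FPKM against 50.1 to 126 (−0.65, edgeR FDR = 0.0263), and Cbr2 and Mgl2 had log2 fold changes of −0.59 and −0.58. Smox, spermine oxidase, at 52.2 to 101 FPKM against 90.2 to 210 (−0.72, edgeR FDR = 0.00923), and Six2, a homeobox factor, at 1.29 to 5.24 FPKM against 4.97 to 9.23 (−0.61, edgeR FDR = 0.0396), were likewise picked and lower.

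Markers of other cell types moved as follows, and their part in the results above was not tested. Of 9 leukocyte genes tested, 0 were called and 9 were below 0, with a median of −0.43; their summed level was 101 to 177 FPKM in the rich set and 118 to 350 in the poor set. Cd74, the invariant chain of class II molecules, was at 23.6 to 50.9 FPKM against 37.1 to 151 (−0.84, FDR = 0.0616), with −1.35 within LD and −0.16 within ADV libraries. Of 8 adipocyte genes, 1 was called: Cfd, adipsin, which was lower, as were 0.657% of all genes (20.8 to 79.5 FPKM against 46.7 to 155, log2 fold change −1.07, SE 0.238, edgeR FDR = 0.0157). The median of this list was −0.43, and its sum 216 to 777 FPKM in the rich set and 273 to 578 in the poor set. Adipoq, adiponectin, ranged from 4.00 to 83.7 FPKM within the rich set alone. Its log2 fold change was −1.35 (SE 0.394) within LD and 0.56 (SE 0.716) within ADV libraries. The highest leukocyte, adipocyte, Schwann cell, fibroblast and endothelial sums of the rich set (177, 777, 86.9, 484 and 171 FPKM) were all those of ADV24, the library with the most slow myosin. Of 6 Schwann cell genes, 0 were called (median 0.37, sum 28.6 to 86.9 FPKM against 27.7 to 42.7). Of 12 endothelial genes, 0 were called (median 0.15, sum 121 to 171 FPKM against 108 to 136), and of 11 fibroblast and tendon genes, 0 (median −0.05, sum 322 to 484 FPKM against 335 to 403). Of 4 hemoglobin genes, 0 were called (median 0.13, sum 69.0 to 137 FPKM against 84.3 to 112). These are near-identical copies, and reads that fit several of them may have been dropped for low mapping quality. No marker of these lists was at 0 in every library.

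**Figure D5:**
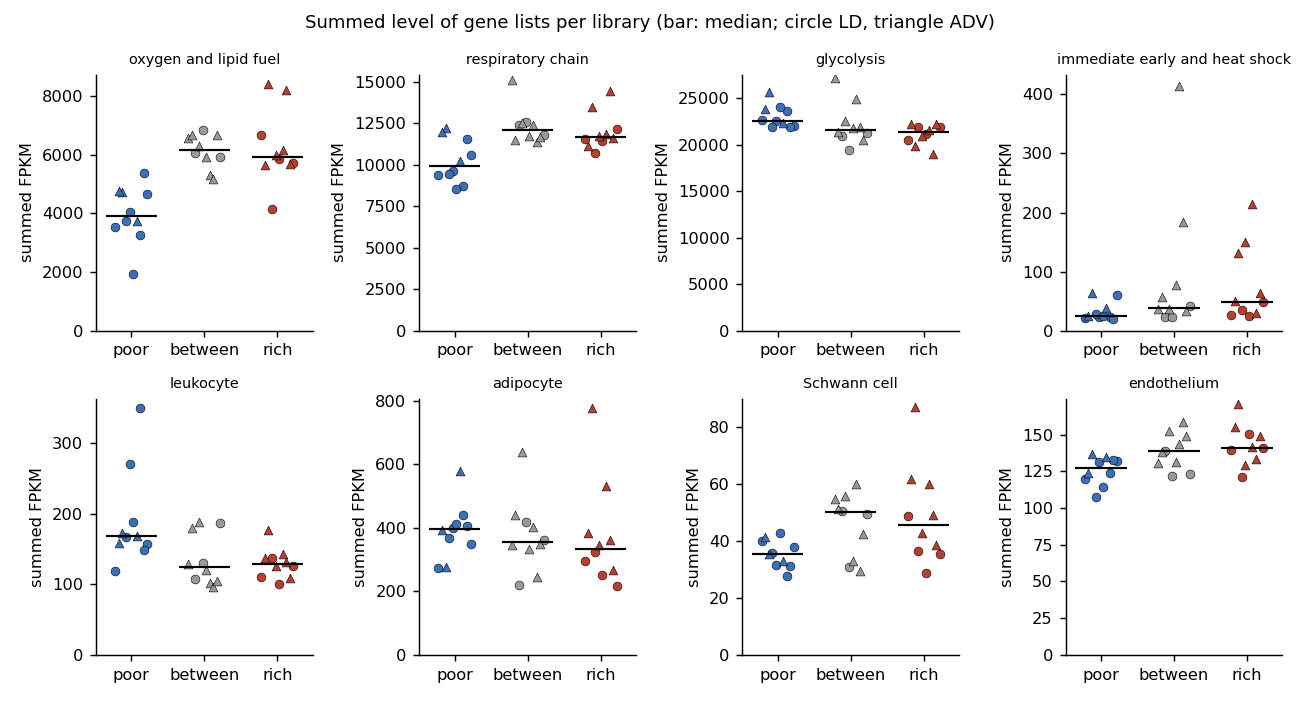
Summed FPKM of 8 gene lists in each library, by set (circle LD, triangle ADV; bar, median). The oxygen and lipid sum had a median of 5923 FPKM in the rich and 3899 in the poor set, the glycolysis sum 21351 and 22609, and the leukocyte sum 129 and 168.

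Responses to time of day, handling and wasting were also read. Of 13 clock genes, 0 were called (median 0.07), and Dbp, a clock output gene, ranged from 3.36 to 42.7 FPKM in the rich set and from 5.35 to 56.9 in the poor set (FDR = 0.822). Bmal1, a core clock gene, stood at −0.02 (FDR = 0.978). Of 10 immediate early and heat shock genes, 0 were called, but the median was 0.60 and the sums were 24.9 to 214 FPKM in the rich set and 19.4 to 63.8 in the poor set. Fos stood at 0.77 (SE 0.406, FDR = 0.293). Otud1 stood at 1.08 (SE 0.581, FDR = 0.303), with 0.27 within LD and 2.15 within ADV libraries. Of 10 atrophy genes, 1 was called higher (1.56% of all genes), Gabarapl1, a protein of autophagosomes (31.4 to 60.9 FPKM against 22.5 to 43.6, log2 fold change 0.52, edgeR FDR = 0.0319), while Trim63, the ubiquitin ligase MuRF1, stood at −0.08 (FDR = 0.915). Of 12 genes of the neuromuscular junction and denervation, 3 were called higher (1.56% of all genes) and 1 lower (0.657%). Chrnd, the delta subunit of the acetylcholine receptor (0.700 to 1.74 FPKM against 0.460 to 0.959, 0.78), Myh3, embryonic myosin (1.07 to 2.76 FPKM against 0.764 to 1.62, 0.66), and Ncam1 (0.776 to 1.52 FPKM against 0.640 to 1.04, 0.40) were higher, and Myh8, perinatal myosin (5.13 to 8.75 FPKM against 7.13 to 11.8, −0.40), was lower.

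Some of these genes lie over others. The library kit kept the strand, but whether the counting used it is not given in the sources used here, so that reads of overlapping genes cannot be told apart with certainty. Genes on the opposite strand cover 38% of the exon bases of Myh7 itself (Mhrt), 56.7% of the exon bases of Fabp3 (Zcchc17), 50.8% of Ppara (Cdpf1), 38.9% of Mb (Gm49540), 33.4% of Pln (Gm47644), 78.7% of Tnnc2 (Ube2c), 36.1% of Actn3 (Ctsf), 91.0% of Gapdh (Iffo1) and 13.5% of Tnnt1 (Gm73143). For the other slow genes called, apart from Mybpc1 (10.1%, Gm48752), no gene covered 10% or more. On the same strand, other annotated genes cover 93.9% of the exon bases of Aldoa (Gm57854) and 100% of those of 5430401H09Rik (Gm33111) and ENSMUSG00000121608 (Gm61521).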

How the data were processed

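Gastrocnemius RNA of 14 LD and 16 ADV mice was analysed, 1 library per mouse, grouped by label. Poly(A) RNA was sequenced as stranded 101-bp paired-end reads. The authors used Trimmomatic for trimming and STAR 2.7.10a for mapping to GRCm39, kept a mapping quality of 10 or more, and counted reads on the exons of UCSC known canonical transcripts with HOMER 4.11 (versions per the submitters' processing notes). The deposited estimated counts were not normalized and hold each mate as 0.5 read, so 14.8% were not whole, and all were rounded. The deposited FPKM values equal the count scaled by exon length and HOMER's library total, to within 5.0e-04. All per-sample columns were used.

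One row per symbol, the longest expressed, was kept where its reads averaged over 20 and its FPKM over 0.5 (12030 genes, 99.7% of counts). The 20 libraries were compared with edgeR 4.0.16 in R 4.3.3 (TMM, quasi-likelihood F test, schedule as covariate, Benjamini-Hochberg adjustment over 12028 genes, Myh7 and Myh4 left out). Called genes had an FDR under 0.05 together with a change over 1.3-fold. Other tests used 100000 permutations (scipy 1.17.1), two-sided. Alternatives were DESeq2 1.42.0, limma 3.58.1 on log2(FPKM + 0.1) and log2(FPKM + 1), other size factors, filters, covariates, set sizes and set definitions, the label number as a block, a GC content offset, each schedule alone and each library left out. The fits without ADV24 and LD23 together, those of the interaction other than edgeR over 30 libraries, the fit of 28 libraries without the block, and the test of the mitochondrial share were added after the data were seen.

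The libraries, the gene lists and the rule for naming genes were chosen with earlier results of these data known. Named were the tested members of the sarcomere, calcium and myosin lists; of other lists up to 4 called members with the smallest p and up to 2 with the highest mean FPKM; the 8 largest rises and 8 largest falls among called genes outside the lists; and Dbp, Bmal1, Fos, Adipoq, Col1a1 and Trim63. Others were named to complete counts or are marked as picked later. P-values describe the spread between mice. The counts of any 2 libraries of a schedule differed by far more than sampling noise (chi-square per degree of freedom at least 10.6).

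On simulated data made from these 20 libraries, with 200 of 12030 genes changed, 193 were called by edgeR and 189 of these had been altered: 57 of 67 at 1.5-fold, 67 of 67 at 2-fold and 65 of 66 at 3-fold. With no gene changed it called 0. The rate of false calls for sets chosen by Myh7 and Myh4, with many genes moving together, was not tested. A gene with a mean near 20 reads has a large counting error, and small differences in such genes were not detectable. Exons were read from GENCODE vM39, whereas the tables rest on vM35.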

Additional observations from a re-analysis of the deposited data

Results flagged for a closer look

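Values standing apart from the other 9 libraries of their set were sought among 52 genes in each set (by Dixon's gap over range). In independent groups chance alone marks about 1 in 20. That rate does not apply here, because many of these genes move together and the sets were cut by Myh7 and Myh4. Of 104 groups 23 were marked. Of these, 15 belonged to ADV24 in the slow-myosin-rich set, whose genes move with the ratio that chose it: Myl2 at 448 FPKM, Myl3 at 504, Tnnt1 at 360, Tnni1 at 149, Tnnc1 at 239, Tpm3 at 269, Actn2 at 792, Myom3 at 51.8, Myh7b at 3.15, Mybpc1 at 679, Atp2a2 at 164, Myh2 at 1445, Cyfip2 at 7.71 and Gm41757 at 5.71 FPKM were the highest of the set, and Myoz1 at 967 FPKM the lowest. Of these genes, 11 are slow sarcomere or slow calcium genes. In the same set ADV31 had the lowest Atp2a1, at 6279 FPKM, and the lowest Ryr1, at 270 FPKM.

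In the slow-myosin-poor set, LD26 had the lowest Myl6b (2.92 FPKM) and the highest Pln (1.21 FPKM) and D630024D03Rik (0.706 FPKM). LD27 had the highest Gm41757 (2.49 FPKM), ADV23 the highest Cyp2f2 (4.20 FPKM) and LD33 the highest H2-Ab1 (60.9 FPKM). LD23, with the lowest slow myosin of all, was not marked on any of these genes.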

How the results depend on the processing

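The count of called genes (267) ranged from 125 to 334 when 1 library was left out, and that of slow sarcomere and calcium genes called (14 of 18) from 11 to 15. DESeq2 called 372 genes, among them 260 of the 267. Counts moved by more than 1.5 times with limma on log2(FPKM + 1) (176), without the schedule covariate (432), with 7 against 7 libraries (41; slow genes 5), 15 against 15 (146), sets by Myh7 alone (70; slow genes 9), and each schedule alone (LD 0, ADV 4; slow genes 0 in each). Sets by Myh4 alone left 9 slow genes called among 239. Label numbers gave no clear pairing of the mice. Over 14 pairs the correlation of deviations had a median of 0.0114 and ran from −0.261 to 0.429. Of these, 6 were over 0.1, and 3 LD libraries were closest to their own number. This cannot exclude a factor shared by some mice of the same number. With the number as a block and the ratio as a number 38 genes were called (37 higher and 1, H4c9, lower; 294 in the same 28 libraries without it), and 95 with the block in the sets of 10, with 0 slow genes and 3 residual degrees of freedom. Within numbers the ratio was higher in ADV for 11 of 14 pairs. The count of 0 for the difference between schedules was 4 with DESeq2. Reversed were Cfd (0.0686) and Cyp2f2 (0.21) with the block and the ratio as a number, and Gm4841 over all 30 libraries (0.0332), over those 28 (0.29) and with sets by Myh4 (0.22). The causes were not tested. Of the other values of named genes under alternatives, 4540 kept direction and side of the threshold, 591 lost the call with the same direction, 39 gained it and 33 uncalled ones changed sign. Leaving out each library in turn, the ratio's difference between schedules ranged from 0.641 to 1.05.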
